A study of Mus musculus with 48 samples.

Results

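Ileum was compared with duodenum in mice on the day of birth, day 0, to describe which differences between the last and the first part of the small intestine were present before the gut had matured. The comparison rests on 6 of the 48 samples of the series, 3 of ileum and 3 of duodenum, chosen by their labelled region and age. All mice were C57Bl/6J without a stated treatment, of both sexes, under housing that the labels call standard germ-free, and stayed with their dams to an age of 21 days. Each sample was whole-thickness bowel 2 cm long, taken just beyond the pylorus for duodenum or just ahead of the ileocecal junction for ileum, so it held muscle, nerves and serosa as well as mucosa. Day 2 and week 4 samples of the same regions, 3 per region and age, served for comparison, and the week 4 mice had been moved to chow. The labels do not say whether a sample was 1 animal. Nor do they say whether ileum and duodenum samples of the same number shared a mouse, though numbers 2 and 3 differed in Y-linked transcripts. The spread between samples may thus be partly technical. Unless stated otherwise, the p-values given here use a spread estimated over 40 samples of several ages, not from these 6 alone.

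The small intestine is patterned along its length before birth. In the mesenchyme and the epithelium, Hox genes are read out in nested domains from front to back, and epithelial transcription factors such as Pdx1, Gata4 and Onecut2 mark the proximal gut. The mature ileum takes back bile acids through the transporter Slc10a2 and the binding protein Fabp6, and signals their return to the liver with the hormone Fgf15. The suckling ileum is further known for enterocytes that take up whole protein by endocytosis and digest it in lysosomes, while the duodenum and jejunum absorb fat, sugar, iron and calcium.

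Total estimated counts ran from 23173093 to 65042327 per sample, and between 24256 and 27350 genes had a count. Mitochondrial transcripts took 17.3%, 23.0% and 29.8% of the counts in duodenum 1, 2 and 3, and 15.9%, 23.3% and 24.2% in ileum 1, 2 and 3. Levels below are CPM, counts scaled to a common library size after correction for library composition (TMM), with samples always in the order 1, 2, 3. CPM are not corrected for gene length, so levels are compared between samples and not between genes. In such bulk tissue, fewer cells of a type and less RNA per cell cannot be told apart.

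Some of the 6 libraries stood apart. Ileum 2 held transcripts of stomach and pyloric glands: Muc6, a gland mucin, stood at 12.9, 13.7 and 9.39 CPM in duodenum 1, 2 and 3 and 14.3, 143 and 19.4 CPM in ileum 1, 2 and 3. Tff2, a peptide secreted with that mucin, stood at 0.17, 0.0893 and 0.11 CPM in duodenum 1, 2 and 3 and 0.263, 17.6 and 0.122 CPM in ileum 1, 2 and 3. In the 19 other ileum samples in the fit, of all ages, Muc6 reached at most 38.0 CPM and Tff2 at most 0.618 CPM. Ileum 2 also held more of the proximal genes Pdx1 (6.49 CPM) and Onecut2 (89.4 CPM) than either other ileum sample. In a different way, duodenum 2 and 3 carried both Xist, the RNA of the inactive X of females (729 and 819 CPM), and the Y-linked Ddx3y (20.6 and 25.2 CPM). Of the other 4 day 0 samples, duodenum 1 and ileum 1 had Ddx3y (67.8 and 45.8 CPM) and less than 5 CPM of Xist. Ileum 2 and 3 had Xist (1121 and 1774 CPM) and at most 0.0416 CPM of Ddx3y. So Ddx3y was above 5 CPM in each duodenum sample but in ileum 1 alone of the ileum samples. The sexes were thus not balanced between the regions, and the part of sex in the differences below was not tested. The labels do not say whether duodenum 2 and 3 hold RNA of several animals. No other sample among the 40 in the fit had more than 100 CPM of Xist together with more than 5 CPM of Ddx3y. Values without ileum 2 are given beside many of the results below.

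**Figure D1:**
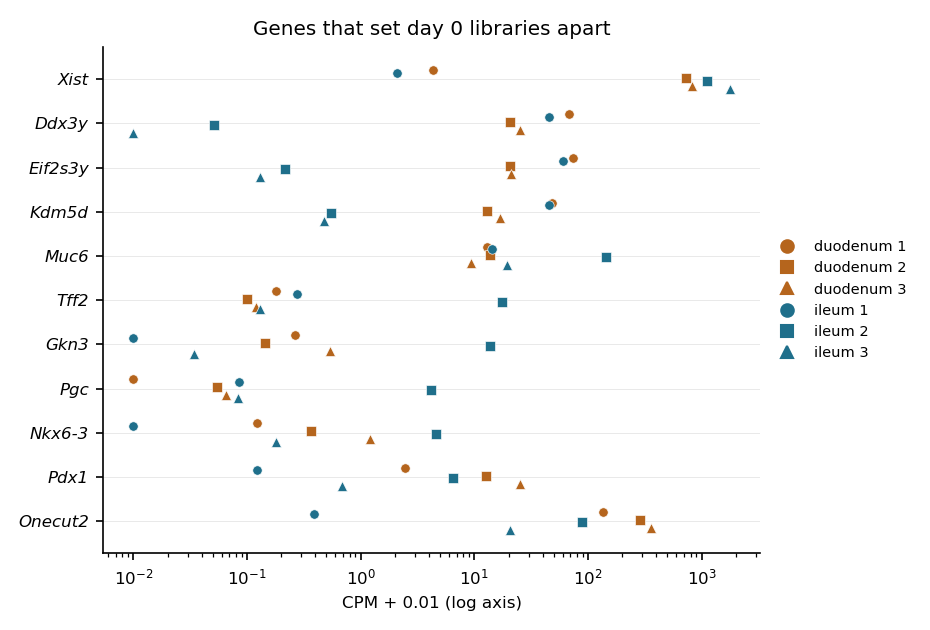
Levels in each of the 6 day 0 samples of genes that set libraries apart (CPM plus 0.01, log axis; colour is the region and symbol the sample number). Ileum 2 is the highest sample for the gland genes Muc6, Tff2, Gkn3, Pgc and Nkx6-3 and the highest ileum sample for Pdx1 and Onecut2, while duodenum 2 and 3 are high for Xist and intermediate for the 3 Y-linked genes.

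Of 21617 genes tested by edgeR's quasi-likelihood test, 2419 (11.2%) differed between ileum and duodenum at an adjusted p under 0.05, and are referred to as called. Of these, 1146 (5.3% of genes tested) were higher in ileum and 1273 (5.89%) higher in duodenum. Differences over 2-fold made up 574 of the former and 362 of the latter. Counts in the lists below stand beside the share of all genes called, 11.2% at day 0, 13.4% at day 2 and 37.5% at week 4. The log2 difference, always ileum minus duodenum, had a median of 0.0055 over all genes tested. The spread in this test was estimated from 40 samples of 7 ages, and the number of calls leaned on that. With the 6 day 0 samples alone, 947 of 17366 genes (5.45%) were called, and with all 48 samples under their labels 578 of 20901 (2.77%). Of the 2419 calls, 861 were shared with the first of these fits, 578 with the second and 394 with both. Leaving out 1 of the 6 samples gave between 1207 and 2283 calls: 1207 without ileum 1, 1240 without duodenum 3, 1533 without duodenum 2, 1714 without ileum 3, 2183 without duodenum 1 and 2283 without ileum 2. In each of these fits 763 genes (31.5% of calls) were called in the same direction. Without duodenum 2 and 3, which leaves 1 duodenum sample whose spread is taken from the other groups, 281 genes were called, and without ileum 2 as well, 443.

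**Figure D2:**
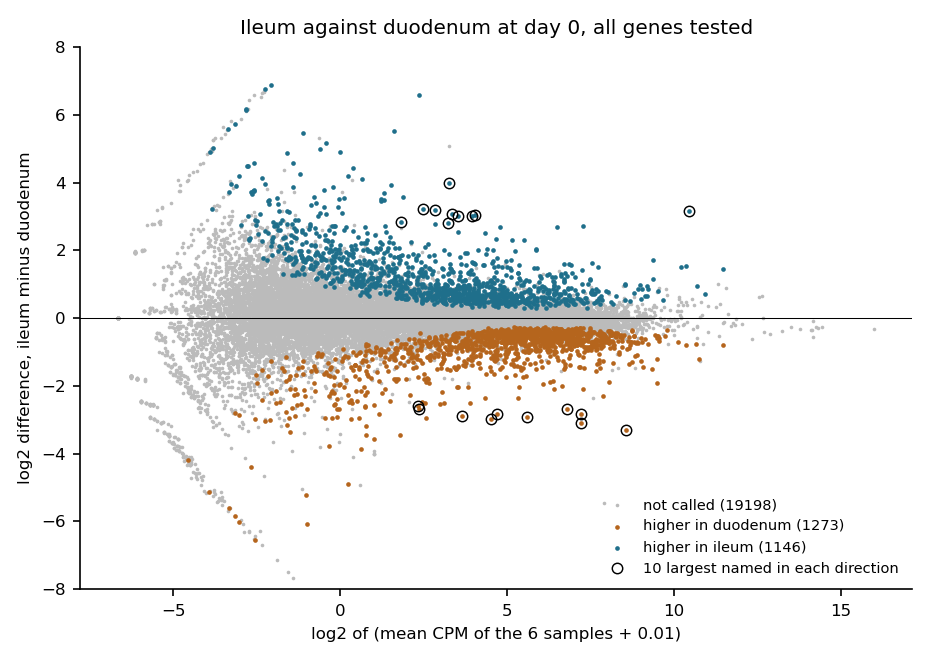
Log2 difference between ileum and duodenum at day 0 (vertical) against log2 of the mean CPM plus 0.01 (horizontal) for the genes tested. Blue points (1146) were called higher in ileum and brown points (1273) higher in duodenum; rings mark the 10 largest differences in each direction among well-detected genes, and 8 genes lie beyond the vertical range.

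No overlap between the 3 samples of each region was seen for 5860 genes (27.1%), including 2223 of the calls. Among called genes of this kind whose log2 CPM averaged 1 or more, the 10 largest differences towards the duodenum ran from -3.32 to -2.59. Mme, which encodes the peptidase neprilysin (chr3:63241537-63386030), stood at 368, 707 and 969.8 CPM in duodenum 1, 2 and 3 and 1.84, 143 and 60.8 CPM in ileum 1, 2 and 3 (log2 difference -3.32, SE 0.72, adjusted p 0.00306). Mfsd2a, a carrier of lysophospholipids (chr4:122946850-122961188), stood at 331, 219 and 252 CPM in duodenum 1, 2 and 3 and 2.41, 66 and 24.9 CPM in ileum 1, 2 and 3 (log2 difference -3.11, SE 0.66, adjusted p 0.00241). Every duodenum sample was above every ileum sample for both genes, but the ileum samples themselves spanned a wide range, with ileum 1 lowest and ileum 2 highest.

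Slc2a5, the fructose transporter (chr4:150119283-150144169), had 41.6, 48.9 and 45 CPM in duodenum 1, 2 and 3 and 2.44, 12.5 and 4.23 CPM in ileum 1, 2 and 3, a difference of 7.18-fold (adjusted p 5.35e-05). Slc27a2, a fatty acid transporter and acyl-CoA synthetase (chr2:126552407-126588243), had 70.7, 89.9 and 93.3 CPM in duodenum 1, 2 and 3 and 2.78, 23.5 and 7.46 CPM in ileum 1, 2 and 3, a difference of 7.61-fold (adjusted p 3.89e-05). Here the duodenum samples lay close together. The others of the 10 were Akr1b7 (an aldo-keto reductase, log2 difference -2.98), Cntnap1 (-2.90), Onecut2 (-2.83), Fam13a (-2.69), Cyp2c66 (a cytochrome P450, -2.68) and Cemip (which acts in the breakdown of hyaluronan, -2.59). The adjusted p of these 6 ranged from 3.40e-05 for Fam13a to 0.0175 for Onecut2. Without ileum 2 the differences were larger, at -4.45 for Mme, -4.28 for Mfsd2a and -3.75 for Slc2a5. Without duodenum 2 and 3, which leaves 1 duodenum sample, they were -2.40, -3.39 and -2.71 for these genes. Over the 10, they then ran from -3.39 for Mfsd2a to -1.13 for Akr1b7. Of the 10, Onecut2 alone lost its call when 1 sample was left out, without duodenum 3 (adjusted p 0.0683) or ileum 3 (0.086). With the 6 day 0 samples alone in the fit the adjusted p was 0.286 for Mme, 0.212 for Mfsd2a, 0.0507 for Slc2a5, 0.1 for Slc27a2 0.392 for Onecut2, 0.262 for Akr1b7, 0.0586 for Fam13a and 0.102 for Cyp2c66, so these 8 were not called there, while Cntnap1 (0.0452) and Cemip (0.00997) were.

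The largest differences towards the ileum were of mixed kinds. Anxa8, an annexin (chr14:34085981-34100571), stood at 1.56, 1.07 and 0.77 CPM in duodenum 1, 2 and 3 and 28.3, 12.8 and 12.4 CPM in ileum 1, 2 and 3 (log2 difference 3.98, SE 0.53, adjusted p 1.48e-05). Afp, the fetal plasma protein alpha-fetoprotein (chr5:90490737-90508907), stood at 455, 289 and 101 CPM in duodenum 1, 2 and 3 and 4506, 1254 and 1830.5 CPM in ileum 1, 2 and 3 (log2 difference 3.17, SE 0.50, adjusted p 1.14e-04). The ileum samples were above the duodenum samples throughout for both genes, and ileum 1 was the highest sample.

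Il18r1, a chain of the interleukin-18 receptor (chr1:40465552-40500854), had 2.52, 2.32 and 2.71 CPM in duodenum 1, 2 and 3 and 36.4, 11.6 and 12.9 CPM in ileum 1, 2 and 3, a difference of 8.01-fold (adjusted p 9.97e-07). Bex1, a small X-linked gene (chrX:136213972-136215513), had 2.24, 1.7 and 2.49 CPM in duodenum 1, 2 and 3 and 28.4, 12.7 and 13.7 CPM in ileum 1, 2 and 3, a difference of 8.42-fold (adjusted p 9.73e-07). The duodenum samples lay close together for both. The remaining 6 were Hal, the histidine-degrading enzyme (log2 difference 3.23), the smooth muscle genes Actg2 (3.20) and Myh11 (3.00), Fabp6 (3.04), Cyp11a1, the first enzyme of steroid hormone synthesis (2.85), and Slc5a8, a monocarboxylate transporter (2.81). Leaving out 1 sample ended the call of Hal without duodenum 3 (adjusted p 0.0518) or ileum 1 (0.0582), of Fabp6 without duodenum 3 (adjusted p 0.0806), and of Slc5a8 without duodenum 1 (adjusted p 0.053), duodenum 2 (0.069), duodenum 3 (0.124) or ileum 1 (0.203). With the day 0 samples alone, Anxa8 (adjusted p 0.00879), Bex1 (0.00879), Il18r1 (0.0173), Actg2 (0.00879) and Myh11 (0.0202) were called as well. So were Cyp11a1 (0.0126), Fabp6 (0.0183), Slc5a8 (0.044) and Hal (0.0497), and Afp was not (0.0724).

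**Figure D3:**
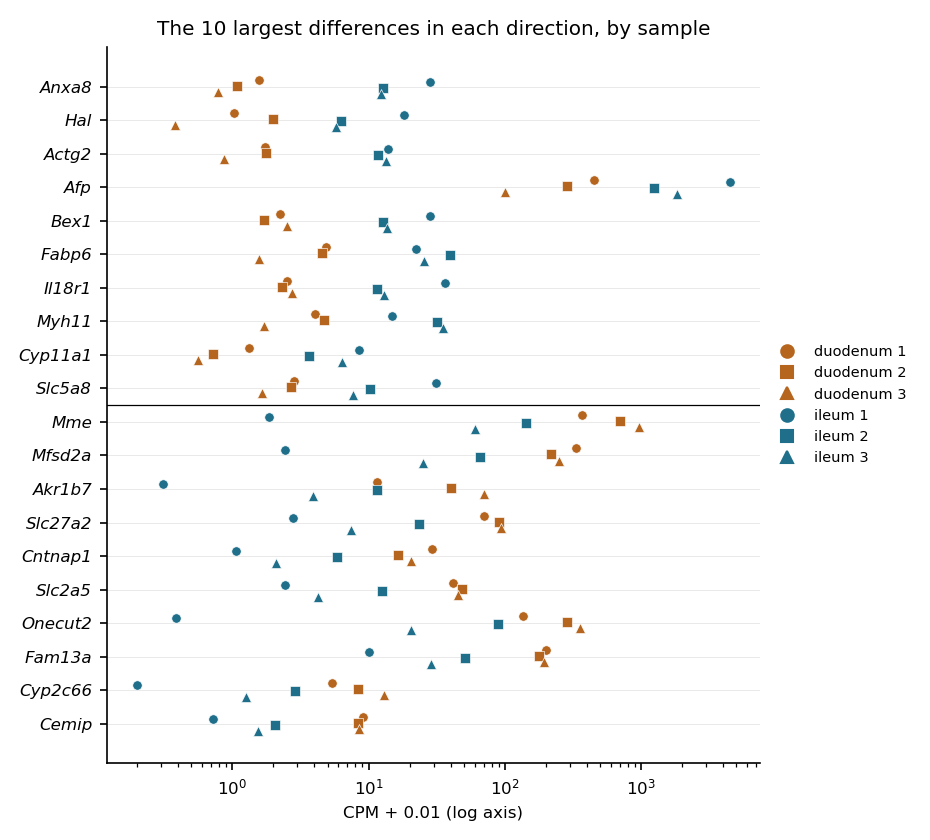
CPM plus 0.01 (log axis) of the 10 genes with the largest differences towards ileum (upper rows) and the 10 towards duodenum (lower rows) in each day 0 sample. By the rule that chose them no region overlaps the other; in each of the 10 lower rows ileum 1 is the lowest ileum sample and ileum 2 the highest.

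That order within the ileum was common among the calls. Of the 1273 genes called higher in duodenum, 788 (61.9%) were lowest in ileum 1 among the ileum samples and 805 (63.2%) highest in ileum 2. Over all genes tested these shares were 39.4% and 26.3%. Of the 1146 genes called higher in ileum, 668 (58.3%) were highest in ileum 1, against 39.1% of all genes tested. So ileum 1 lay farthest from the duodenum for most calls and ileum 2 nearest. In the duodenum the genes called higher there were highest in duodenum 3 in 667 cases (52.4%, against 38.6% of all genes). The cause of this order was not tested.

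Of 24 transcription factors tied to gut position, 19 had enough counts to be tested and 8 were called, 5 higher in ileum and 3 higher in duodenum. Pdx1, needed for the duodenum and pancreas (chr5:147269959-147275848), stood at 2.47, 12.7 and 25.2 CPM in duodenum 1, 2 and 3 and 0.113, 6.49 and 0.681 CPM in ileum 1, 2 and 3 (log2 difference -2.53, SE 0.83, adjusted p 0.0481). Because of ileum 2 the regions overlapped, and without that sample the log2 difference was -4.97 (adjusted p 0.00109). Without duodenum 2 and 3, which leaves 1 duodenum sample, the log2 difference of Pdx1 was -0.046. With ileum 2 left out as well it was -2.50. Onecut2, a proximal homeodomain factor, stood at 136, 287 and 356 CPM in duodenum 1, 2 and 3 and 0.376, 89.4 and 20.4 CPM in ileum 1, 2 and 3, with no overlap.

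Gata4, which keeps ileal genes off in the proximal epithelium (chr14:63198922-63271692), stood at 117, 109 and 117 CPM in duodenum 1, 2 and 3 and 35.1, 68.8 and 62.1 CPM in ileum 1, 2 and 3 (log2 difference -1.05, SE 0.30, adjusted p 0.0203). Its level in the ileum samples was thus lower but far from absent. Gata6, a related factor of the whole intestine, stood at 168, 148 and 164 CPM in duodenum 1, 2 and 3 and 137, 142 and 119 CPM in ileum 1, 2 and 3 and was not called (log2 difference -0.28, SE 0.12, adjusted p 0.123).

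Osr2, a zinc finger factor (chr15:35296098-35303305), stood at 23.9, 10.5 and 3.98 CPM in duodenum 1, 2 and 3 and 47.8, 26.7 and 34.4 CPM in ileum 1, 2 and 3 (log2 difference 1.51, SE 0.38, adjusted p 0.00893). Both regions expressed it and each ileum sample exceeded each duodenum sample. Maf, a basic leucine zipper factor, differed by 1.58-fold (adjusted p 0.00367), and Cdx2, the caudal factor that sets intestinal identity, by 1.33-fold (adjusted p 0.0402) with overlapping samples. Sox21 had no count in the duodenum samples and 0.15, 0.166 and 0.0243 CPM in the ileum samples, which is at least 3.67-fold higher when 3 counts over the duodenum group are taken as the floor. Cdx1, Hnf4a, Hnf4g, Gata3, Tbx3, Isx, Nr5a2, Prdm1 and Creb3l3 were tested and not called, and Onecut1, Sox2, Nkx2-5, Barx1 and Six2 had too few counts.

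Maf kept its call with any 1 day 0 sample left out. With the day 0 samples alone in the fit, 2 of the 19 factors were called, Maf (adjusted p 0.0236) and Gata4 (0.0413). The call of Gata4 was lost without duodenum 2 (adjusted p 0.0505), duodenum 3 (0.0649) or ileum 1 (0.17). That of Osr2 was lost without duodenum 2 (adjusted p 0.053), duodenum 3 (0.0605) or ileum 1 (0.0703), that of Pdx1 without duodenum 2 (adjusted p 0.0873), duodenum 3 (0.294), ileum 1 (0.198) or ileum 3 (0.186), and that of Cdx2 without duodenum 2 (adjusted p 0.177), duodenum 3 (0.17), ileum 1 (0.441) or ileum 2 (0.0692). Sox21 lost its call without duodenum 1 (adjusted p 0.0861), duodenum 2 (0.0838), duodenum 3 (0.155), ileum 1 (0.118) or ileum 2 (0.09). At week 4 the regional differences of Gata4 (-1.78), Osr2 (1.35), Onecut2 (-4.24) and Pdx1 (-2.81) had the sign they had at day 0, and none of these 4 was called for a change between the ages. Cdx2 was (-0.15 at week 4, adjusted p 0.0423 for the change).

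Hox genes are named by cluster (a to d) and by paralog group, a low group lying towards the head and a high one towards the tail. Of 39 Hox genes 25 were tested, and 5 (20%, against 11.2% of all genes) were called, each higher in ileum. The median log2 difference of the 25 was 0.63. In paralog groups 5 to 8, each of the 10 genes tested had a positive difference, 4 of them called, with a median of 1.69. In groups 1 to 4, 7 of 11 were positive and 1 was called, with a median of 0.32. Of groups 9 to 13, 6 of 16 genes had no count in any of the 6 samples, 4 could be tested and none was called by edgeR or DESeq2, with 1 at an unadjusted p under 0.05.

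Hoxc8 (chr15:102990607-102994111) stood at 0.255, 0.0447 and 0.0367 CPM in duodenum 1, 2 and 3 and 2.82, 2.16 and 2.41 CPM in ileum 1, 2 and 3 (log2 difference 4.43, SE 0.71, adjusted p 1.01e-04). Hoxd3 (chr2:74711927-74748442) stood at 0.0567, 0.179 and 0 CPM in duodenum 1, 2 and 3 and 1.17, 2.83 and 1.7 CPM in ileum 1, 2 and 3 (log2 difference 4.89, SE 0.77, adjusted p 9.99e-05). The 3 duodenum libraries together held 12 counts of Hoxc8 and 6 of Hoxd3. The annotated span of Hoxd3 includes Hoxd4 and antisense transcripts and that of Hoxc8 overlaps Hoxc5, so their counts are uncertain where these genes share sequence, and the sources used here do not say whether counting used strand.

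Hoxc6 (0.312, 0.313 and 0.275 CPM in duodenum 1, 2 and 3 and 0.977, 1.25 and 1.75 CPM in ileum 1, 2 and 3), Hoxb7 (0.624, 0.313 and 0.55 CPM in duodenum 1, 2 and 3 and 3.91, 1.21 and 1.05 CPM in ileum 1, 2 and 3) and Hoxa7 (0.567, 0.223 and 0.22 CPM in duodenum 1, 2 and 3 and 0.864, 1.16 and 1.34 CPM in ileum 1, 2 and 3) were the others called, with log2 differences of 2.15, 2.00 and 1.73. In all 5 the ileum samples stood above the duodenum samples. Hoxc8 and Hoxd3 kept the call with any 1 sample left out. Hoxa7 lost it without duodenum 2 (adjusted p 0.0545) or duodenum 3 (0.0855), Hoxb7 without duodenum 2 (adjusted p 0.071), duodenum 3 (0.0557) or ileum 1 (0.243), and Hoxc6 without duodenum 3 (adjusted p 0.0746) or ileum 3 (0.0693). Genes of group 9, such as Hoxb9 with 0.198, 0.313 and 0.275 CPM in duodenum 1, 2 and 3 and 0.338, 0.25 and 0.413 CPM in ileum 1, 2 and 3, had no regional difference that passed the test at day 0 (log2 difference 0.39, adjusted p 0.88).

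At day 2, 2 of the 25 Hox genes were called higher in ileum and 4 higher in duodenum, with a median log2 difference of 0.07. At week 4, 15 of the 25 were called higher in ileum and 1, Hoxa10, higher in duodenum, with a median log2 difference of 2.48. Of all genes, 19.9% and 17.6% were called in these directions at week 4. The change from day 0 to week 4 was itself called for 4. Hoxb9 moved from 0.39 to 9.59 (adjusted p 0.00151 for the change), and Hoxb8 from 1.49 to 5.59 (adjusted p 0.0181). Hoxb3 and Hoxd8, the others, moved from 0.41 to 2.77 and from 0.62 to 2.48. Hoxc8 stood at 5.27 at week 4 and was not called for a change (adjusted p 0.65). Whether day 0 and day 2 differed was not tested.

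**Figure D4:**
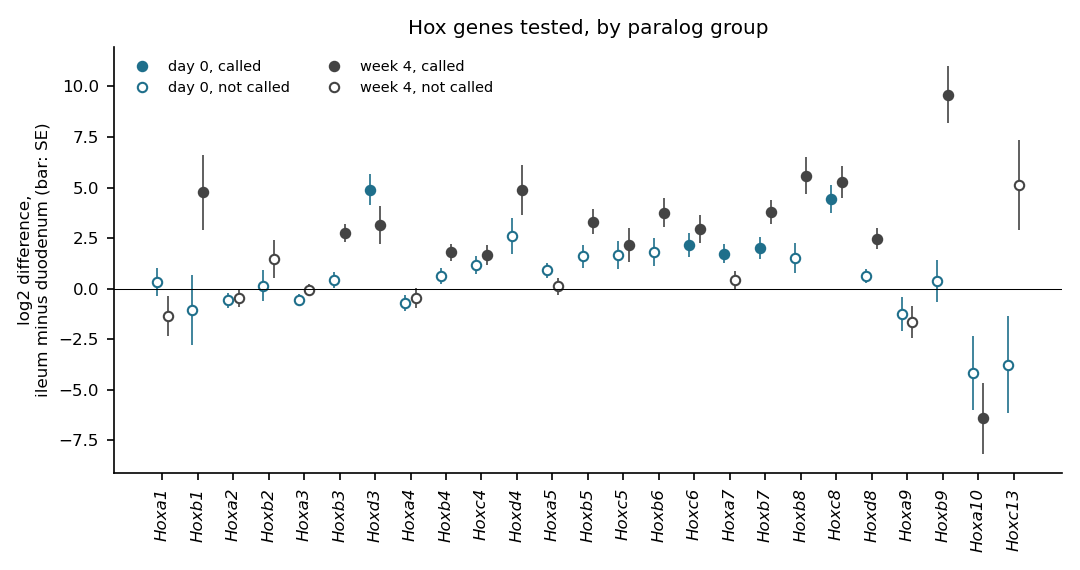
Log2 difference, ileum minus duodenum, with its standard error, for the 25 Hox genes tested, ordered by paralog group, at day 0 (blue) and week 4 (grey); filled points were called. The day 0 points of groups 5 to 8 all lie above 0, led by Hoxc8 at 4.43, and Hoxb9 is near 0 at day 0 and at 9.59 at week 4.

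Of 10 genes of bile acid handling 9 were tested, 4 were called higher in ileum and 2 higher in duodenum. Fabp6, which binds bile acids inside ileal enterocytes (chr11:43596049-43601540), stood at 4.85, 4.56 and 1.56 CPM in duodenum 1, 2 and 3 and 22.2, 39.8 and 25.5 CPM in ileum 1, 2 and 3 (log2 difference 3.04, SE 0.77, adjusted p 0.0117). Slc10a2, the sodium-dependent uptake transporter of the ileal brush border (chr8:5083219-5105351), stood at 0.936, 0.804 and 0.77 CPM in duodenum 1, 2 and 3 and 5.75, 3.33 and 2.5 CPM in ileum 1, 2 and 3 (log2 difference 2.19, SE 0.58, adjusted p 0.0131). Neither overlapped between regions, though all levels were low.

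The bile acid receptor gene Nr1h4 (FXR) stood at 172, 174 and 172 CPM in duodenum 1, 2 and 3 and 278, 259 and 285 CPM in ileum 1, 2 and 3, a difference of 1.59-fold (adjusted p 0.0276). Abcc2, an apical export pump for conjugates, stood at 1599.9, 1154 and 608 CPM in duodenum 1, 2 and 3 and 2670.4, 1863 and 1884 CPM in ileum 1, 2 and 3 (log2 difference 0.93, SE 0.24, adjusted p 0.00965). Each ileum sample was above each duodenum sample for both genes. Nr0b2, a repressor induced by that receptor in liver and gut, was higher in duodenum at 3.86, 6.07 and 5.34 CPM in duodenum 1, 2 and 3 and 1.24, 1.91 and 1.29 CPM in ileum 1, 2 and 3 (log2 difference -1.79, SE 0.33, adjusted p 4.80e-04), as was the basolateral pump Abcc3 (log2 difference -1.13, SE 0.27, adjusted p 0.00646).

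Fgf15, the hormone that reports bile acid return, stood at 25.3, 16.3 and 4.14 CPM in duodenum 1, 2 and 3 and 45.5, 25.4 and 67.2 CPM in ileum 1, 2 and 3, with a log2 difference of 1.61 that did not pass the test (adjusted p 0.107). The basolateral exporter subunits Slc51a (0.29) and Slc51b (-0.25) were not called either, and Gpbar1 had too few counts. Nr0b2 kept its call with any 1 sample left out. The calls of Fabp6 and Slc10a2 were lost without duodenum 3 (adjusted p 0.0806 and 0.0756), and that of Slc10a2 also without ileum 1 (0.0971). Abcc2 lost its call without duodenum 3 (adjusted p 0.12) or ileum 1 (0.0992), Abcc3 without duodenum 3 (adjusted p 0.188) or ileum 1 (0.0771) and Nr1h4 without duodenum 1 (adjusted p 0.0649), duodenum 2 (0.0786), duodenum 3 (0.103), ileum 1 (0.0912), ileum 2 (0.0516) or ileum 3 (0.078).

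The differences towards the ileum were larger at week 4. The log2 difference of Fabp6 was 11.71 at week 4 against 3.04 at day 0 (adjusted p 1.35e-04 for the change). For Slc10a2 it was 8.46 against 2.19 (adjusted p 2.21e-05), and for Fgf15 12.27 against 1.61 (adjusted p 1.89e-04). Abcc2 changed direction, from 0.93 to -1.02 (adjusted p 2.94e-04).

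Stretches before a start of 3 of these genes are shown because they share a short motif. TTTATG, or CATAAA on the other strand, is a core that Cdx factors bind, and it was searched on both strands in the 250 bases before the start that the RefSeq table lists first for each gene. It occurred in 3 of the 8 bile acid genes with a listed promoter, Slc10a2, Fabp6 and Nr1h4. Of 13946 genes tested here that had a promoter in the table, 7.27% held it. So did 7.14% of the 798 called higher in ileum and 6.76% of the 991 called higher in duodenum. A GATA core, AGATAA or TTATCT on the other strand, was searched as well and is not marked below. It occurred in 1 of the 8 bile acid genes, Nr1h4, and in 7.33% of the 13946. Each sequence below is the 100 bases from -165 to -66 relative to the start, from RefSeq's GRCm38.p6 annotation. It is read 5′ to 3′ along the gene, with the Cdx motif in capitals.
Slc10a2, minus strand of chr8:5105353-5105452: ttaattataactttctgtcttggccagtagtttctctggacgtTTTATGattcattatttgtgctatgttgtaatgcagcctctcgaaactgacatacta
Fabp6, minus strand of chr11:43601628-43601727: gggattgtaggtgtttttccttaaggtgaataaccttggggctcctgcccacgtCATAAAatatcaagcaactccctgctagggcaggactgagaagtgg
Nr1h4, minus strand of chr10:89506724-89506823: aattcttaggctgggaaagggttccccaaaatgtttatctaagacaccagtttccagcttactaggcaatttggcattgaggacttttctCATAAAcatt
The GENCODE span of Nr1h4 (chr10:89454234-89533585) reaches farther upstream than the start used here, so its stretch lies inside the annotated gene. The Cdx motif begins at -122 in Slc10a2, -111 in Fabp6 and -75 in Nr1h4. A match describes these letters and does not show that a factor binds there.

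Of 25 genes of protein uptake and lysosomal digestion, all tested, 8 were called higher in ileum and 3 higher in duodenum, with a median log2 difference of 0.51 and 21 positive differences. The cathepsin gene Ctsd stood at 462, 354 and 303 CPM in duodenum 1, 2 and 3 and 997, 450.4 and 566 CPM in ileum 1, 2 and 3 (log2 difference 0.85, SE 0.21, adjusted p 0.00829), and Hexa, a subunit of lysosomal hexosaminidase, at 423, 306 and 306 CPM in duodenum 1, 2 and 3 and 883, 405 and 594 CPM in ileum 1, 2 and 3 (log2 difference 0.86, SE 0.21, adjusted p 0.00686). For Ctsd and Hexa the value of ileum 2 fell within the duodenum range.

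Amn, which anchors cubilin at the apical membrane, stood at 97.2, 65.6 and 39.999 CPM in duodenum 1, 2 and 3 and 210.0, 99.9 and 117 CPM in ileum 1, 2 and 3 (log2 difference 1.08, SE 0.28, adjusted p 0.0123). Its partner Cubn, the large uptake receptor, stood at 1063, 959 and 730.5 CPM in duodenum 1, 2 and 3 and 1596, 1276 and 1179 CPM in ileum 1, 2 and 3 with no overlap, and its log2 difference of 0.56 did not pass the test (adjusted p 0.136). The adaptor Dab2 (0.64, adjusted p 0.14), the endocytic gene Mamdc4 (0.89, 0.28) and the receptor Lrp2 (0.32, 0.706) were not called. The other calls towards the ileum were of lysosomal enzymes: Ctsz, Ctsh, Lgmn, Scpep1 and Neu1, with log2 differences of 0.66, 0.56, 1.51, 0.55 and 0.93.

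Pigr, which carries immunoglobulin A across the epithelium, was higher in duodenum at 261, 331 and 564 CPM in duodenum 1, 2 and 3 and 24.8, 112 and 99.8 CPM in ileum 1, 2 and 3 (log2 difference -2.29, SE 0.32, adjusted p 2.11e-05). Lipa, the lysosomal acid lipase, was higher there at 534, 535 and 484 CPM in duodenum 1, 2 and 3 and 232, 317 and 285 CPM in ileum 1, 2 and 3 (log2 difference -0.90, SE 0.17, adjusted p 6.78e-04), and Fcgrt, a chain of the neonatal receptor for immunoglobulin G, at 2481, 1705 and 1879 CPM in duodenum 1, 2 and 3 and 1081, 1088 and 1408 CPM in ileum 1, 2 and 3 (log2 difference -0.76, SE 0.25, adjusted p 0.0459). Pigr and Lipa kept their calls with any 1 sample left out. With the day 0 samples alone in the fit, Lipa was called (adjusted p 0.0181) and Pigr was not (0.102), and 2 of the 25 genes were called. Without ileum 1 the adjusted p was 0.154 for Hexa, 0.234 for Ctsd, 0.185 for Amn and 0.205 for Ctsz, and without duodenum 3 it was 0.0579, 0.0859, 0.124 and 0.132. Without duodenum 2 it was 0.0532 for Amn and 0.0634 for Ctsz. Ctsh, Lgmn, Scpep1 and Neu1 lost their calls without duodenum 2, duodenum 3 or ileum 1 as well, with adjusted p from 0.0658 to 0.441, and Fcgrt without duodenum 1 (adjusted p 0.185), duodenum 2 (0.0589), duodenum 3 (0.083), ileum 1 (0.193) or ileum 2 (0.132). Without ileum 2 there were 10 calls towards the ileum and 2 towards the duodenum.

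At day 2, 17 of these 25 genes were called higher in ileum and 2 higher in duodenum. At week 4, 4 were called higher in ileum and 8 higher in duodenum, against 19.9% and 17.6% of all genes. The change between day 0 and week 4 was called for 8 genes, among them Ctsz (0.66 to -0.85, adjusted p 1.91e-04), Hexa (0.86 to -0.28, 0.0112) and Pigr (-2.29 to -0.53, 0.0071).

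Of 22 genes of fat absorption tested, 4 (18.2%, against 11.2% of all genes) were called, each higher in duodenum. The median log2 difference of the 22 was -0.48. Apoc2, an apolipoprotein of chylomicrons that activates lipoprotein lipase, stood at 923, 792 and 1182 CPM in duodenum 1, 2 and 3 and 234, 377 and 411 CPM in ileum 1, 2 and 3 (log2 difference -1.50, SE 0.31, adjusted p 0.00166). Sar1b, the small GTPase that loads chylomicrons into transport vesicles, stood at 211, 206 and 191 CPM in duodenum 1, 2 and 3 and 110.2, 133 and 95 CPM in ileum 1, 2 and 3 (log2 difference -0.85, SE 0.15, adjusted p 3.00e-04). The regions were well apart for both.

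Dgat2, which makes triglyceride, differed by 1.64-fold (adjusted p 0.0145), and Fabp2, the intestinal fatty acid binding protein, by 1.73-fold (adjusted p 0.0339). Fabp1 (2198, 2389 and 2814 CPM in duodenum 1, 2 and 3 and 478, 1299.8 and 1311 CPM in ileum 1, 2 and 3) and Cd36 (431, 435 and 415 CPM in duodenum 1, 2 and 3 and 108, 226 and 277 CPM in ileum 1, 2 and 3) did not overlap between regions but missed the threshold (adjusted p 0.117 and 0.137). Apob (-0.42), Mttp (-0.63) and Apoa4 (-0.57) were not called, with adjusted p of 0.195, 0.0769 and 0.37. Dgat2 lost its call without duodenum 1 (adjusted p 0.0672) or ileum 1 (0.136), and Fabp2 without duodenum 1 (adjusted p 0.0849), duodenum 2 (0.0993), duodenum 3 (0.0528), ileum 1 (0.137) or ileum 3 (0.116). At week 4, 15 of the 22 genes were called higher in duodenum, against 17.6% of all genes.

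Of 12 genes of sugar digestion, transport and gluconeogenesis, 7 were called higher in duodenum and none in ileum, with a median log2 difference of -0.85. Besides Slc2a5, Slc2a2, the basolateral glucose carrier GLUT2, stood at 368, 441 and 441 CPM in duodenum 1, 2 and 3 and 72.3, 175 and 94.1 CPM in ileum 1, 2 and 3 (log2 difference -1.87, SE 0.46, adjusted p 0.00753). Khk, which phosphorylates fructose, stood at 19.3, 20.1 and 31.8 CPM in duodenum 1, 2 and 3 and 12.1, 13.9 and 12.2 CPM in ileum 1, 2 and 3 (log2 difference -0.90, SE 0.25, adjusted p 0.0184). Slc2a5, Slc2a2 and Khk were each higher in duodenum without overlap.

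Treh, the trehalose-splitting enzyme, had a log2 difference of -2.62, and the gluconeogenic enzymes G6pc and Pck1 had -0.98 and -1.20 (adjusted p 0.00202, 0.016 and 0.0213). Lct, the lactase that splits milk sugar, stood at 2830.1, 2208 and 2029 CPM in duodenum 1, 2 and 3 and 1094, 1420.0 and 1604 CPM in ileum 1, 2 and 3 and was not called (log2 difference -0.78, SE 0.47, adjusted p 0.328). Sis, the sucrase of the weaned gut, was at 12.1, 18.4 and 21.5 CPM in duodenum 1, 2 and 3 and 8.57, 14.5 and 23.5 CPM in ileum 1, 2 and 3, with a log2 difference of -0.15 (adjusted p 0.827). Slc5a1, Mgam and Fbp1 were not called. Slc2a2 lost its call without ileum 1 (adjusted p 0.0748), Khk without duodenum 3 (adjusted p 0.19), ileum 1 (0.0971) or ileum 3 (0.0673), G6pc without duodenum 2 (adjusted p 0.0691), duodenum 3 (0.0651), ileum 1 (0.0613) or ileum 3 (0.116) and Pck1 without duodenum 3 (adjusted p 0.14), ileum 1 (0.17) or ileum 2 (0.0585).

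Brush border peptidases were split, with 3 of 12 called higher in ileum and 1, Mme, higher in duodenum. Enpep, an aminopeptidase for acidic residues, stood at 567, 428 and 227 CPM in duodenum 1, 2 and 3 and 1044, 826 and 839 CPM in ileum 1, 2 and 3 (log2 difference 1.15, SE 0.25, adjusted p 0.00261). Naaladl1, a relative of glutamate carboxypeptidase, stood at 512, 285 and 131 CPM in duodenum 1, 2 and 3 and 1575, 667 and 801 CPM in ileum 1, 2 and 3 (log2 difference 1.71, SE 0.44, adjusted p 0.00966), and Mep1a, the alpha subunit of meprin, had a log2 difference of 0.86 (adjusted p 0.0436). The alanyl aminopeptidase Anpep (-0.58, adjusted p 0.0759) and Tmprss15, the enteropeptidase that activates trypsinogen (-2.49, 0.128), were not called. Without ileum 2, Tmprss15 (-7.20, adjusted p 0.0066) and Ggt1 (-1.03, 0.0473) were called as well, which made 3 in each direction. Naaladl1 lost its call without duodenum 3 (adjusted p 0.0808) or ileum 1 (0.109), and Mep1a without duodenum 2 (adjusted p 0.13), duodenum 3 (0.196) or ileum 1 (0.431). With the day 0 samples alone in the fit, none of the 12 was called.

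Of 13 amino acid and peptide transporters 2 (15.4%, against 11.2% of all genes) were called, both higher in ileum. Slc6a14, a sodium- and chloride-dependent carrier of neutral and cationic amino acids (chrX:21714896-21742355), stood at 0.0284, 0.268 and 0.0734 CPM in duodenum 1, 2 and 3 and 21.7, 5.49 and 3.16 CPM in ileum 1, 2 and 3 (log2 difference 6.59, SE 1.05, adjusted p 1.42e-04). The 3 duodenum libraries together held 11 counts of it. Slc1a1, the glutamate carrier, stood at 3.32, 3.3 and 3.76 CPM in duodenum 1, 2 and 3 and 22, 10.5 and 9.33 CPM in ileum 1, 2 and 3 (log2 difference 2.00, SE 0.27, adjusted p 1.25e-05). Both kept the call with any 1 sample left out, and both were called with the day 0 samples alone (adjusted p 0.0242 and 0.017). The peptide transporter Slc15a1 and the main neutral amino acid carrier Slc6a19 were not called (-0.62 and -0.09, adjusted p 0.216 and 0.87).

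Iron and calcium genes gave 2 calls towards the ileum and 1 towards the duodenum among 12 tested (25%, against 11.2% of all genes). Tfrc, the transferrin receptor, was higher in duodenum (log2 difference -0.99, SE 0.21, adjusted p 0.00168), and Vdr, the vitamin D receptor, and Atp2b1, a calcium pump, were higher in ileum (0.53 and 0.52, adjusted p 0.0109 and 0.0413). Cybrd1, the duodenal ferric reductase, stood at 55.5, 52.7 and 56.9 CPM in duodenum 1, 2 and 3 and 19.2, 36 and 37 CPM in ileum 1, 2 and 3, without overlap but not called (log2 difference -0.84, SE 0.42, adjusted p 0.217). The iron carriers Slc11a2 and Slc40a1 had differences of -0.04 and -0.04, and the calcium channel Trpv6 was near its detection limit at 0.284, 0.313 and 1.19 CPM in duodenum 1, 2 and 3 and 0.0752, 0.582 and 0.267 CPM in ileum 1, 2 and 3. Vdr lost its call without duodenum 2 (adjusted p 0.102) or ileum 1 (0.119), and Atp2b1 without duodenum 2 (adjusted p 0.119), duodenum 3 (0.162), ileum 1 (0.131), ileum 2 (0.0744) or ileum 3 (0.0852).

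Retinoid genes gave 3 calls among 11 tested (27.3%, against 11.2% of all genes), each higher in duodenum, with a median log2 difference of -0.79. Aldh1a1, which makes retinoic acid, stood at 41.6, 54.3 and 65.8 CPM in duodenum 1, 2 and 3 and 11.3, 27.8 and 21.1 CPM in ileum 1, 2 and 3 (log2 difference -1.43, SE 0.25, adjusted p 3.39e-04). Rbp2, the retinol carrier of enterocytes, stood at 1943, 2385 and 2907 CPM in duodenum 1, 2 and 3 and 844, 1207 and 1077 CPM in ileum 1, 2 and 3 (log2 difference -1.21, SE 0.33, adjusted p 0.0153), and Rdh7, a retinol dehydrogenase, had a log2 difference of -2.84 (adjusted p 9.74e-04). Rbp2 lost its call without duodenum 3 (adjusted p 0.081) or ileum 1 (0.103).

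Of 15 genes of ion and fluid transport, 4 were called higher in duodenum and 1, Slc5a8, higher in ileum. Slc9a3, the sodium-proton exchanger NHE3, stood at 203, 220.0 and 217 CPM in duodenum 1, 2 and 3 and 39.8, 116 and 80.2 CPM in ileum 1, 2 and 3 (log2 difference -1.44, SE 0.32, adjusted p 0.00361). The chloride-bicarbonate exchanger Slc26a3 and the water channels Aqp8 and Aqp3 had log2 differences of -0.61, -1.79 and -1.65 (adjusted p 0.00263, 0.00562 and 0.0159), each with ileum 2 inside the duodenum range. Cftr was not called (-0.45, adjusted p 0.0987). Without ileum 2, Cftr (-0.79, adjusted p 0.00479) and Slc12a2 (-0.73, 0.0347) were called too, which made 6 higher in duodenum. Slc26a3 lost its call without ileum 1 (adjusted p 0.0552), Aqp8 without duodenum 3 (adjusted p 0.0826) or ileum 1 (0.0558) and Aqp3 without duodenum 2 (adjusted p 0.0793), duodenum 3 (0.0922), ileum 1 (0.118) or ileum 3 (0.0762).

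Of 20 genes of enteroendocrine cells, which make the gut hormones, 3 were called higher in ileum and 4 higher in duodenum. Pyy, the peptide YY of distal L cells (chr11:102106676-102107832), stood at 4.2, 2.46 and 3.54 CPM in duodenum 1, 2 and 3 and 28.9, 12.1 and 18.4 CPM in ileum 1, 2 and 3 (log2 difference 2.53, SE 0.38, adjusted p 5.42e-05). Gcg, which encodes proglucagon, stood at 9.21, 6.97 and 7.89 CPM in duodenum 1, 2 and 3 and 25.9, 21.1 and 14.2 CPM in ileum 1, 2 and 3 (log2 difference 1.34, SE 0.22, adjusted p 1.52e-04). For both, each ileum sample was above each duodenum sample.

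Nts, neurotensin, was 2.38-fold higher in ileum (adjusted p 0.0371). Gip, the duodenal incretin, stood at 28.7, 41.9 and 59 CPM in duodenum 1, 2 and 3 and 7.4, 19.1 and 25.8 CPM in ileum 1, 2 and 3 (log2 difference -1.30, SE 0.42, adjusted p 0.0399), and Cck, cholecystokinin, at 11.4, 17.6 and 26.1 CPM in duodenum 1, 2 and 3 and 4.77, 10.2 and 7.97 CPM in ileum 1, 2 and 3 (log2 difference -1.27, SE 0.32, adjusted p 0.00876). Tph1, of serotonin synthesis in enterochromaffin cells, had a log2 difference of -1.11 (adjusted p 0.0198). Each duodenum sample was above each ileum sample for Gip and Cck, whereas Tph1 in ileum 2 lay in the duodenum range.

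Insl5, a hormone gene of the colon in adults, was higher in duodenum at day 0, at 1.19, 1.97 and 3.28 CPM in duodenum 1, 2 and 3 and 0.263, 0.624 and 0.267 CPM in ileum 1, 2 and 3 (log2 difference -2.51, SE 0.58, adjusted p 0.00388). At week 4 its difference was 2.95, and the change was called (adjusted p 0.00734). Sct, secretin, differed by 0.34 and was not called (adjusted p 0.485). Ghrl, Sst, Tac1, Gast, Chga, Chgb and the factors Neurog3, Neurod1, Nkx2-2, Isl1 and Pax6 were not called either. Pyy, Gcg and Insl5 kept their calls with any 1 sample left out. Gip lost its call without duodenum 2 (adjusted p 0.0794), duodenum 3 (0.195), ileum 1 (0.217) or ileum 2 (0.066), Cck without duodenum 3 (adjusted p 0.0978) or ileum 1 (0.0789), Tph1 without duodenum 3 (adjusted p 0.186) or ileum 1 (0.139) and Nts without duodenum 1 (adjusted p 0.0662), duodenum 2 (0.107), duodenum 3 (0.133), ileum 1 (0.103) or ileum 3 (0.131).

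Of 11 goblet cell and mucus genes, 5 were called higher in ileum and 1 higher in duodenum, with a median log2 difference of 0.54. The lineage factors Atoh1 and Spdef stood at 6.21, 6.39 and 7.61 CPM in duodenum 1, 2 and 3 and 9.09, 11.8 and 13.4 CPM in ileum 1, 2 and 3 and at 8.56, 6.88 and 8.67 CPM in duodenum 1, 2 and 3 and 12.4, 13.3 and 15.4 CPM in ileum 1, 2 and 3, respectively (1.69-fold and 1.7-fold, adjusted p 0.00372 and 0.00339). Muc2, the main gel-forming mucin, stood at 299, 254 and 195 CPM in duodenum 1, 2 and 3 and 332, 501 and 623 CPM in ileum 1, 2 and 3 (log2 difference 0.96, SE 0.30, adjusted p 0.0346). Tff3, a mucus trefoil peptide, and Agr2, which folds mucins, were 1.81-fold and 1.63-fold higher (adjusted p 0.0115 and 0.00991). None of these overlapped between regions.

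Zg16, a mucus lectin that binds bacteria, went the other way, at 22.5, 30.5 and 49.4 CPM in duodenum 1, 2 and 3 and 5.41, 14.6 and 14.4 CPM in ileum 1, 2 and 3 (log2 difference -1.57, SE 0.42, adjusted p 0.0137). By week 4 it was higher in ileum (1.28, adjusted p 0.0018 for the change). The goblet genes Fcgbp (0.35) and Clca1 (0.24) were not called at day 0. Atoh1, Spdef and Agr2 kept their calls with any 1 sample left out, whereas Muc2 lost it without duodenum 2 (adjusted p 0.0882), duodenum 3 (0.18), ileum 2 (0.074) or ileum 3 (0.173), Tff3 without duodenum 3 (adjusted p 0.0667) or ileum 1 (0.0852) and Zg16 without duodenum 3 (adjusted p 0.107) or ileum 1 (0.102). None of the 7 Reg lectin genes tested was called by edgeR or DESeq2, nor was any at an unadjusted p under 0.05. Reg1 stood at 1.84, 24.1 and 63.4 CPM in duodenum 1, 2 and 3 and 0, 45.6 and 0.413 CPM in ileum 1, 2 and 3, high in duodenum 2 and 3 and in ileum 2. Without ileum 2 it was called higher in duodenum (-6.94, adjusted p 7.95e-04).

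**Figure D5:**
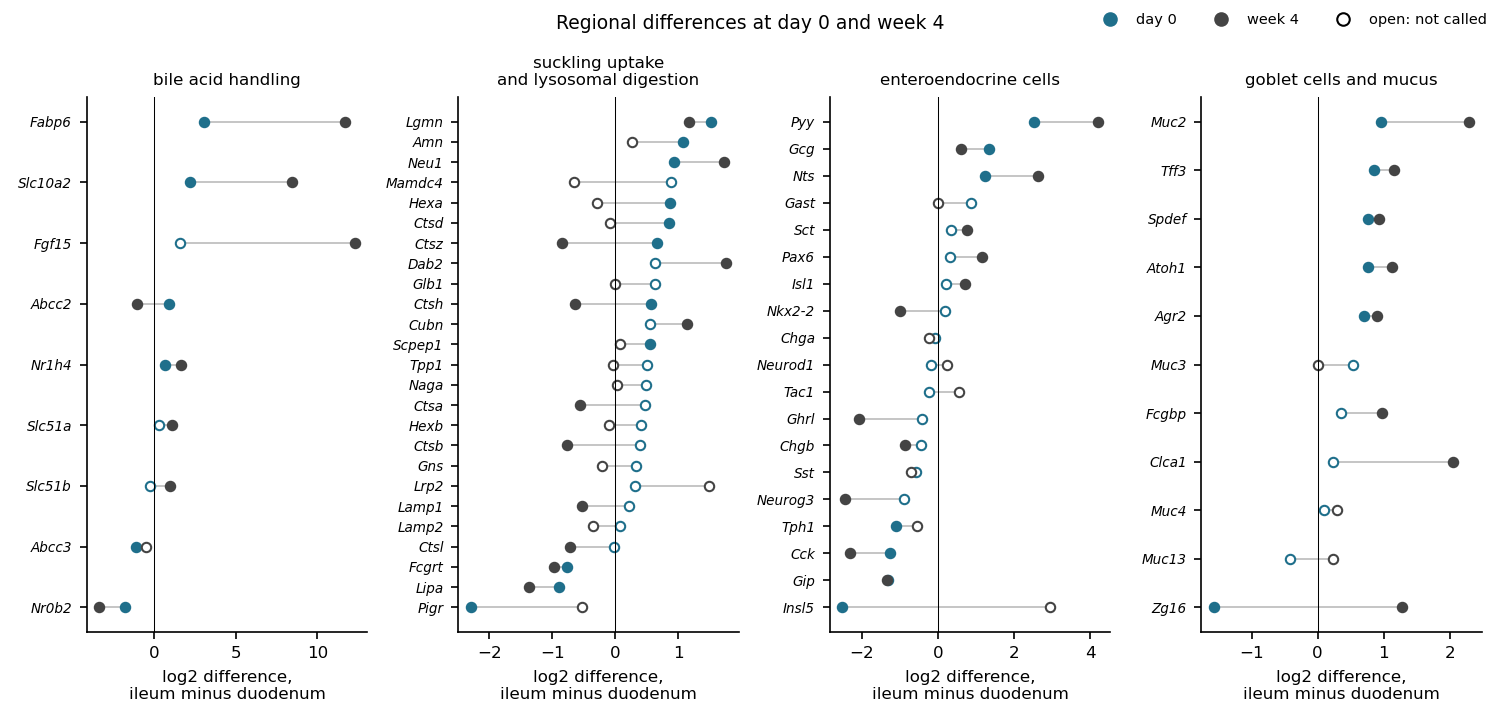
Log2 difference, ileum minus duodenum, at day 0 (blue) and week 4 (grey) of genes tested in 4 lists; filled points were called, and the scales differ between panels. Fabp6, Slc10a2 and Fgf15 are at 3.04, 2.19 and 1.61 at day 0 and at 11.71, 8.46 and 12.27 at week 4, while Zg16 and Insl5 change sign.

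Of 17 crypt and cell cycle genes, 2 (11.8%, against 11.2% of all genes) were called, both higher in duodenum, with a median log2 difference of -0.41. Olfm4, a marker of crypt base cells, stood at 289, 242 and 381 CPM in duodenum 1, 2 and 3 and 100.5, 149.6 and 138 CPM in ileum 1, 2 and 3 (log2 difference -1.23, SE 0.23, adjusted p 4.34e-04). Mcm2, of the replicative helicase, stood at 62.5, 46.5 and 49.6 CPM in duodenum 1, 2 and 3 and 27.7, 26.4 and 23.1 CPM in ileum 1, 2 and 3 (log2 difference -1.04, SE 0.16, adjusted p 5.22e-05). Both kept the call with any 1 sample left out. Lgr5, the stem cell receptor, was not called (-0.01, adjusted p 1), nor was Mki67 (-0.50, 0.158).

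Among 20 genes of Hedgehog, Wnt and BMP signalling 3 (15.0%, against 11.2% of all genes) were called, each higher in ileum, and at day 2 none was called higher in ileum and 1 higher in duodenum. Gli1, a target and effector of Hedgehog signals in the mesenchyme, stood at 1.64, 0.893 and 1.08 CPM in duodenum 1, 2 and 3 and 3.72, 4.08 and 5.35 CPM in ileum 1, 2 and 3 (log2 difference 1.85, SE 0.45, adjusted p 0.00603). Grem1, a BMP antagonist of the muscle layers, stood at 0.822, 0.313 and 0.458 CPM in duodenum 1, 2 and 3 and 1.99, 3.25 and 2.26 CPM in ileum 1, 2 and 3 (log2 difference 2.20, SE 0.58, adjusted p 0.0115), and the ligand Shh, at under 1 CPM in each sample, had a log2 difference of 1.80 (adjusted p 0.0145). At day 2 Gli1 had a log2 difference of -0.61 (adjusted p 0.428). The main epithelial ligand Ihh and the receptor Ptch1 were not called (-0.15 and -0.01). Grem1 lost its call without duodenum 2 (adjusted p 0.063) or duodenum 3 (0.0684), and Shh without duodenum 1 (adjusted p 0.0598), duodenum 2 (0.0594) or ileum 1 (0.102).

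Of 10 genes of arginine and citrulline synthesis, 2 were called higher in ileum, Prodh (log2 difference 1.08, SE 0.16, adjusted p 3.48e-05) and Asl (0.57, adjusted p 0.0175), and 2 higher in duodenum, among them the arginase gene Arg2 (-2.93, adjusted p 0.0127). Prodh, which starts proline breakdown, stood at 57.1, 55.5 and 51.5 CPM in duodenum 1, 2 and 3 and 124, 95.6 and 127 CPM in ileum 1, 2 and 3. Cps1, Otc and Ass1, the core of citrulline and arginine synthesis, were not called. Without ileum 1 the calls of Arg2 (adjusted p 0.0794) and Asl (0.296) were lost, and without duodenum 3 those of Arg2 (0.231) and Asl (0.15).

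Of 11 smooth muscle genes, 6 were called higher in ileum and none in duodenum, with a median log2 difference of 1.68. Actg2, the smooth muscle gamma-actin (chr6:83512905-83536265), stood at 1.73, 1.74 and 0.862 CPM in duodenum 1, 2 and 3 and 13.8, 11.7 and 13.4 CPM in ileum 1, 2 and 3. Myh11, the smooth muscle myosin heavy chain (chr16:14194535-14291372), stood at 4.03, 4.73 and 1.71 CPM in duodenum 1, 2 and 3 and 14.7, 31.7 and 35.2 CPM in ileum 1, 2 and 3, and Cnn1, calponin, at 0.0567, 0.268 and 0.202 CPM in duodenum 1, 2 and 3 and 2.97, 2.58 and 3.38 CPM in ileum 1, 2 and 3 (log2 difference 4.10, SE 0.75, adjusted p 4.68e-04). No sample of one region reached the other for these genes.

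Tpm2, Tagln and Lmod1 had log2 differences of 2.09, 1.68 and 2.42. Acta2 (1.45, adjusted p 0.0676), Des (0.81, 0.279) and Mylk (0.35, 0.177) were not called. Tagln lost its call without duodenum 3 (adjusted p 0.0591) or ileum 3 (0.0513); the other 5 kept theirs with any 1 sample left out. At day 2 edgeR called none of the 11 and DESeq2 1, which was also the number at an unadjusted p under 0.05, with a median log2 difference of -0.14, and at week 4, 9 were called higher in ileum. Whether day 0 and day 2 differed was not tested.

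Other cell types of the wall gave further calls. Of 5 mesothelial genes, which mark the outer serosa, Msln, Upk1b and Wt1 were called higher in ileum (2.21, 1.75 and 2.78, adjusted p 0.00473, 0.0332 and 0.0343). Of 11 genes of enteric neurons 4 were called, each higher in ileum, among them Elavl4 (2.01), Uchl1 (1.29) and Ret (0.74), with adjusted p from 0.0149 to 0.0422. Of 4 genes of pacemaker cells, 3 with a positive difference, Kit and Ano1 were called higher in ileum (0.61 and 1.03, adjusted p 0.0334 and 0.0441). Of 7 fibroblast genes 1 (14.3%, against 11.2% of all genes), Col1a1, was called, higher in ileum (log2 difference 1.58, SE 0.45, adjusted p 0.0214). It stood at 17.7, 18 and 25.3 CPM in duodenum 1, 2 and 3 and 53, 59.7 and 69.5 CPM in ileum 1, 2 and 3. Col3a1 and Dcn were not called (1.26 and 1.96, adjusted p 0.174 and 0.0778). Of 6 glial genes S100b was called higher in duodenum (-1.96, adjusted p 0.00298) and Sox10 was not called. That list had 4 positive and 2 negative differences, with a median log2 difference of 0.07. At day 2 edgeR called none of the neuronal, fibroblast or mesothelial genes, with 3, 0 and 0 at an unadjusted p under 0.05 and 1, 0 and 0 called by DESeq2. Each of these day 0 calls was lost in at least 1 fit without a sample, those of Msln and S100b without duodenum 3 only (adjusted p 0.0578 and 0.0605), and without ileum 2 those of Uchl1 (0.0907), Kit (0.181), Ano1 (0.171), Upk1b (0.110) and Wt1 (0.0775).

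Summed CPM of the marker lists were as follows. Smooth muscle genes summed to 122 to 187 CPM in the duodenum samples and 243 to 275 CPM in the ileum samples, and mesothelial genes to 5.30 to 6.29 and 12.1 to 16.5 CPM. Sums of neuronal (33.6 to 45.0 and 51.8 to 78.7 CPM) and fibroblast genes (138 to 236 and 252 to 382 CPM) did not overlap either. Those of pacemaker (35.1 to 65.5 and 35.8 to 70.9 CPM), glial (297 to 400 and 281 to 455 CPM) and endothelial genes (112 to 213 and 60.6 to 223 CPM) did. Epithelial genes summed to 3588 to 3977 CPM in the duodenum and 3427 to 4296 CPM in the ileum, and the pan-epithelial genes Epcam and Cdh1 were not called (0.21 and 0.01). Of the 8 epithelial genes, Krt20, a keratin of mature villus cells, was higher in duodenum at 188, 152 and 171 CPM in duodenum 1, 2 and 3 and 50.1, 71.4 and 74 CPM in ileum 1, 2 and 3 (log2 difference -1.38, SE 0.21, adjusted p 4.08e-05), Krt19 too (-0.49, adjusted p 0.0271), and Krt18 higher in ileum (0.58, adjusted p 0.0125). Krt19 lost its call without duodenum 1 (adjusted p 0.0566), duodenum 3 (0.208) or ileum 3 (0.212), and Krt18 without duodenum 2 (adjusted p 0.0691) or ileum 1 (0.131). The part of tissue makeup in the differences above was not tested.

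Markers of neighbouring organs were looked at in the same way. Of 18 pancreatic acinar genes tested 1 (5.56%, against 11.2% of all genes), Cela1, was called (-0.86, adjusted p 0.0398, higher in duodenum). The 20 listed acinar genes summed to 21.5, 36.8 and 66.4 CPM in the duodenum samples and 5.26, 21.4 and 11.3 CPM in the ileum samples, and the amylase gene Amy2a5 was at 0 in all but duodenum 3. Islet genes summed to at most 8.23 CPM, and Ins1, the 1 gene called, was at 0.0284, 0.581 and 2.31 CPM in duodenum 1, 2 and 3 and 0, 0.0416 and 0 CPM in ileum 1, 2 and 3. Both calls, of Cela1 and Ins1, were lost without any of duodenum 2, duodenum 3 and the 3 ileum samples.

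Stomach and pyloric gland genes gave 4 calls towards the ileum, Muc6, Tff2, Gkn3 and Pgc, and each rested on ileum 2. The 13 genes summed to 16.4 to 18.2 CPM in the duodenum samples, and to 16.1, 190 and 22.7 CPM in ileum 1, 2 and 3. Without ileum 2 none was called higher in ileum, with adjusted p of 0.899 for Tff2, 0.713 for Muc6, 0.103 for Gkn3 and 0.839 for Pgc. Leaving out a duodenum sample ended these calls too, with adjusted p from 0.0529 to 0.149. Lipf, a gastric lipase, was higher in duodenum (log2 difference -2.96, SE 0.65, adjusted p 0.00502).

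Of 7 liver genes tested, Afp and Fgb were called higher in ileum (12.7, 8.66 and 3.94 CPM in duodenum 1, 2 and 3 and 48.1, 32 and 46.3 CPM in ileum 1, 2 and 3 for Fgb, the fibrinogen beta chain) and Alb and Serpina1a higher in duodenum (-3.16 and -1.45, adjusted p 0.00909 and 0.0103). Alb, albumin, the defining hepatocyte gene, was at most 1.25 CPM in any sample, and Ahsg was at 0 in each ileum sample. Alb lost its call without duodenum 1 (adjusted p 0.127) or ileum 1 (0.0564), and Serpina1a without ileum 1 (adjusted p 0.0842).

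Red blood cell genes summed to 730, 1495 and 2992 CPM in duodenum 1, 2 and 3 and to 239, 847 and 766 CPM in ileum 1, 2 and 3, with a median log2 difference of -1.48. None of the 7 tested was called by edgeR, but 6 had an unadjusted p under 0.05 and DESeq2 called 5. Of 7 macrophage and 8 lymphocyte genes none was called by either tool, with 2 and 0 at an unadjusted p under 0.05. Of 7 endothelial genes Prox1, a lymphatic factor also made by other cells, was called higher in ileum (0.70, adjusted p 0.0207). That call was lost without duodenum 1 (adjusted p 0.108), duodenum 2 (0.0658), ileum 2 (0.0685) or ileum 3 (0.0786). Prox1 was the 1 endothelial gene with a positive difference, the other 6 being negative, and the median log2 difference was -0.11. Of 5 skeletal muscle genes Myh3, an embryonic myosin, was called higher in ileum (2.19, adjusted p 0.0386), a call lost without duodenum 2 (adjusted p 0.143), duodenum 3 (0.154), ileum 1 (0.12) or ileum 3 (0.0891). The large bowel genes Hoxa13, Hoxb13 and Hoxd13 had no count in any of the 6 samples.

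The later samples were other samples than those at birth, although the spread was estimated in the same fit. At day 2, 2903 genes (13.4%) were called, and 1578 without ileum 2 of that age and 1811 without duodenum 3. Among markers of neighbouring organs, 15 of 18 pancreatic acinar genes were called higher in duodenum at day 2, with a median log2 difference of -7.11. So were 5 of 11 stomach and pyloric gland genes. Of the 1146 genes called higher in ileum at day 0, 496 (43.3%) were called higher in ileum at day 2, against 7.62% of all genes, and 9 were called the other way. Of the 1273 called higher in duodenum, 474 (37.2%) were called so at day 2, against 5.81% of all genes, and 21 the other way. Slc6a14 (6.57 at day 2), Il18r1 (3.53), Afp (4.85), Mme (-4.14), Onecut2 (-3.84) and Hoxc8 (5.43) were among the recurring ones.

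At week 4, 8097 genes (37.5%) were called, and 5064 without ileum 3 of that age. Of the day 0 calls, 451 of those higher in ileum (39.4%) and 564 of those higher in duodenum (44.3%) were called the same way, against 19.9% and 17.6% of all genes, and 78 (6.81%) and 82 (6.44%) were called the other way. The regional difference changed between day 0 and week 4 for 3146 genes (14.6%). Of these, 2235 were called at week 4 but not at day 0, 458 at day 0 but not at week 4, 160 at both ages in opposite directions and 72 at both in one direction, the rest being called at neither age. Afp was one of the 160: from 3.17 at day 0 its difference went to -2.59 at week 4 (adjusted p 8.31e-06 for the change). Week 4 counts depended on the samples in the fit, with 2491 genes called when only the compared groups were used and 4369 with all 48 samples. The number with a called change was 377 and 697 in those fits, 845 without duodenum 2 and 3 of day 0, and 1489 without ileum 1 of day 0.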

How the data were processed

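RNA-seq had been made from 48 mouse bowel samples, 3 for each of 2 regions and 8 ages. The authors deposited estimated counts per gene, named in the table as tximport output and whole as deposited; the submitters' processing notes list STAR 2.6.1d, Salmon 0.14.2, DESeq2 1.30.1 and mm10 without role or order, and the annotation release is not given in the sources used here. The table has 54532 genes, of which 51106 took a symbol from the authors' normalized tables. Those tables hold signal values that the authors made by dividing each sample's counts by a size factor; the values were not used. Coordinates are from GENCODE M21 (GRCm38) and promoters from RefSeq (GRCm38.p6).

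Genes were filtered by filterByExpr, scaled by TMM and tested with edgeR 4.0.16 (R 4.3.3; quasi-likelihood, robust), with Benjamini-Hochberg adjustment over all genes tested. One mean per region and age was fitted over the 40 samples in the authors' normalized tables. The other 8, all of day 4 and number 3 of day 6, were left out, since the day 6 pair carry each other's regional pattern. Calls had an adjusted p under 0.05, and the SE is the log2 difference over the root of F. The scripts were tested on simulated data.

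Members and gene lists were chosen with earlier results of these data known. Named are the 10 largest differences in each direction among called genes with mean log2 CPM of at least 1 and no overlap, up to 6 called genes per list by adjusted p (all for Hox genes and transcription factors), and 15 genes fixed by name. Other list members are named to account for a list, with their values seen; some members that enter the counts are not reported here by name. Alternatives were other samples in the fit, other scaling (RLE), filters, DESeq2 1.42.0, a replicate block and leaving out samples.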

Additional observations from a re-analysis of the deposited data

Results flagged for a closer look

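For 30 named genes the regional difference at week 4 differed from that at day 0 in edgeR's quasi-likelihood test of the change (adjusted p under 0.05 over all genes; 14.6% of all genes tested passed). Values are the log2 difference between ileum and duodenum at week 4 minus that at day 0. Where the difference had one sign at both ages and was larger at week 4, in 9 genes, the change was Fabp6 8.67, Slc10a2 6.27, Nr1h4 1.00, Dgat2 -0.91, Mep1a 1.69, Aqp8 -4.23, Pyy 1.67, Muc2 1.34 and Prox1 1.17. Where it had one sign and was smaller at week 4, in 5 genes, it was Anxa8 -2.65, Il18r1 -1.77, Cntnap1 2.00, Pigr 1.76 and Krt20 1.37. Where the sign turned, in 16 genes, it was Afp -5.76, Cyp11a1 -3.39, Cdx2 -0.56, Abcc2 -1.96, Hexa -1.15, Ctsd -0.94, Ctsz -1.52, Fabp2 1.37, Vdr -0.96, Insl5 5.46, Zg16 2.85, Shh -2.45, Asl -0.92, Gkn3 -7.71, Pgc -8.29 and Cybrd1 1.81. The adjusted p ranged from 8.31e-06 for Afp to 0.0455 for Anxa8. A turned sign was not always a called reversal. Among the 16, Afp, Abcc2, Ctsz, Vdr and Zg16 were called at both ages. Cyp11a1, Cdx2, Hexa, Ctsd, Fabp2 and Insl5 were not called at week 4, with edgeR adjusted p there from 0.0569 for Insl5 to 0.768 for Ctsd. Cybrd1 was not called at day 0. The changes of Gkn3 and Pgc rest on day 0 values that come from ileum 2.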

How the results depend on the processing

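The count of 2419 genes at day 0 changed most with the samples used. It was 578 with all 48 samples in the fit, 947 with only the compared groups, 281 without the 2 duodenum libraries with Xist and Ddx3y, and, in an alternative chosen after seeing the data, 443 without the 3 libraries that stand apart. Leaving out 1 sample gave 1207 to 2283. RLE scaling gave 2383, no filter 1720, a mean count of at least 10 gave 2490 and DESeq2 2963. At day 2 the 2903 calls became 1024 with all 48 samples and 5408 with only the compared groups, and 1578 to 2242 with 1 sample left out. At week 4 the 8097 became 4369, 2491 and 5064 to 8970. The 3146 changes between the ages became 697 and 377, with no filter 2064, without the 2 duodenum libraries 845, and 1489 to 4297 with 1 sample left out.

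The labels do not say that a sample number marks a shared animal or batch. Ddx3y stood at 20.6 and 25.2 CPM in duodenum 2 and 3 and at 0.0416 and 0 CPM in ileum 2 and 3. The 2 libraries of number 2, and those of number 3, thus did not hold RNA of 1 mouse alone. Deviations of same-numbered samples correlated at 0.256, 0.0742 and 0.234, and differently numbered ones at -0.231 to 0.0451. All 6 samples correlated best with their own number. Each correlation counts for 2 samples, though, so these are not 6 separate results. The value for sample 2, 0.0742, is close to 0.0451. With the replicate block the counts were 2791 at day 0, 3263 at day 2, 7691 at week 4 and 3336 for the change. The block with the day 0 samples alone, also an added alternative, gave 2710 for day 0.

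Of 124 named genes, signs reversed only for Gkn3 (-4.24 without ileum 2 and up to 4.44 without another sample, -3.81 without the 3 libraries) and for Trpv6, which was not called (-1.78 to 0.0063 with 1 sample left out, 0.093 without duodenum 2 and 3). Without the 2 duodenum libraries 99 lost their call and without the 3 libraries 87. The cause was not tested. Low counts limit Hox genes above group 8, Sox21, Shh and Trpv6.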
